A study of Mus musculus with 8 samples.

Results

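The genes described here carry the supply of cysteine, the making, recycling and breakdown of glutathione, and the synthesis of asparagine, proline and alanine. The members were Cbs, Cth, Slc7a11, Gss, Chac1, Gsr, Asns, Aldh18a1, Pycr1 and Gpt2, taken by gene symbol from the platform's probe-to-gene table. A probe set was used if it named 1 gene only, and a gene with several was read from its brightest, by mean log2 intensity across the arrays. Of the 10 members, 9 were measured, out of 22180 genes with such a probe set, and Pycr1, the last enzyme of proline synthesis, was not analysed here.

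RNA of the epidermis was measured on 8 expression arrays, 4 per genotype, in C57BL/6J mice at birth (day 0). The K320E-TwinkleEpi arrays (K320E below) came from newborns in which the K14 promoter directs a mutant of Twinkle, the helicase of mitochondrial DNA, to the epidermis. The K14 promoter is active in basal keratinocytes. The Control arrays came from newborns labelled R26-K320E-TwinkleloxP/+, so the controls carry the K320E-Twinkle allele too. The signal of the Twinkle gene was still lower on every Control array than on every K320E array, as given below. The labels do not say whether the arrays stand for separate animals, so the p-values rest on a spread between arrays that may be technical. The sex-linked levels given below differ within each genotype, so the arrays of a genotype do not all share a source. Which arrays, if any, share an animal is not known.

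Cysteine enters a keratinocyte either as cystine, through an exchanger whose transport subunit is SLC7A11 and whose partner is SLC3A2, or is made from methionine by transsulfuration, in which CBS makes cystathionine and CTH splits it into cysteine. Glutathione is built from glutamate, cysteine and glycine by glutamate-cysteine ligase and then GSS, is restored from its oxidised form by GSR, and is cleaved inside the cell by CHAC1. Asparagine comes from ASNS, proline from glutamate through ALDH18A1 and then PYCR enzymes, and mitochondrial alanine from GPT2. Many of these genes are known targets of ATF4, the transcription factor of the integrated stress response, which binds C/EBP-ATF elements, and several glutathione genes are known targets of NRF2, which binds antioxidant response elements.

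The promoters are shown because these elements have been described in genes of this group. A window of 300 bases, from 250 before to 50 after the start site, was given by RefSeq (GRCm38.p6) for 8 of the 10 members. Windows were searched on both strands for TGATGNAA, the core of the C/EBP-ATF element, and TGACNNNGC, the core of the antioxidant response element. The C/EBP-ATF core was found in 4 of the 8 windows (Slc7a11, Chac1, Asns and Pycr1) and in 3.97% of the 32851 windows in the table. The antioxidant core was found in 1 of the 8 (Asns) and in 12.4% of all windows. Neither core was found in the windows of Cbs, Gss, Aldh18a1 and Gpt2, and Cth and Gsr had no window. Of these, Cth and Aldh18a1 are among the genes that rose below, while Chac1, which holds the C/EBP-ATF core, is not. No match overlapped another. The windows of Slc7a11 (chr3:50443564-50443863, minus strand), Chac1 (chr2:119350992-119351291, plus strand) and Asns (chr6:7693160-7693459, minus strand) are printed with every match in capitals, and that of Gss (chr2:155592761-155593060, minus strand), the member with the smallest change, holds neither core.
Slc7a11: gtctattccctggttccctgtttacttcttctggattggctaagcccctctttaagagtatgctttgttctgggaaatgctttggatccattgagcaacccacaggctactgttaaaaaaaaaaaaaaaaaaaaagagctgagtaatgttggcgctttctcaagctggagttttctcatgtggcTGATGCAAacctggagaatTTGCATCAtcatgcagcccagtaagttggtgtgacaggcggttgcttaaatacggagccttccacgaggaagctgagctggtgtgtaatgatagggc
Chac1: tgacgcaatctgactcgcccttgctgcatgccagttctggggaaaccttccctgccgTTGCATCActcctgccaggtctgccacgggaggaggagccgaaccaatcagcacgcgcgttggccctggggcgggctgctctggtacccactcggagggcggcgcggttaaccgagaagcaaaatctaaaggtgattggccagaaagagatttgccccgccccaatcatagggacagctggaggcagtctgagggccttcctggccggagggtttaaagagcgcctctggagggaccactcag
Asns: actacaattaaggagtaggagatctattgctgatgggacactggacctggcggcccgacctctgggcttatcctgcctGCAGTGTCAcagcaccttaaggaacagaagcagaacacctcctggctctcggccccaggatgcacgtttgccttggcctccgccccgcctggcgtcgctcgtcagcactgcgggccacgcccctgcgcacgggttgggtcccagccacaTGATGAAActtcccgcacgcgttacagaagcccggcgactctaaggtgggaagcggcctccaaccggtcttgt
Gss: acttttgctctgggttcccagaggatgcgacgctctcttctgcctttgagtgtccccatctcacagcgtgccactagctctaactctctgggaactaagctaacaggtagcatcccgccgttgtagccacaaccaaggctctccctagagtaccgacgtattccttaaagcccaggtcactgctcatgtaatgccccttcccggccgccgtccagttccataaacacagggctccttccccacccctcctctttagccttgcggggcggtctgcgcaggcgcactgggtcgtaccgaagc
In Slc7a11 the matches lay on opposite strands, starting 66 and 47 bases before the start site. The Chac1 match started 193 bases before the start site. In Asns the C/EBP-ATF core began 23 bases before it, and the capitals further upstream mark the antioxidant core. A match is a description of these letters and not a measured binding site.

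The values are log2 intensities, so a difference of 1 is a doubling, and every difference below is K320E minus Control with the moderated SE of limma. A gene is called where the p-value adjusted over all 22180 genes (limma, Benjamini-Hochberg) is under 0.05. Of the 9 measured members 4 rose in K320E, 0 fell and 5 were not called, where 0.685% of all genes rose and 0.194% fell. The median difference was 0.47 over the members and -0.00052 over all genes. The groups did not overlap, with K320E higher, for 5 members, against 5.5% of all genes, and with K320E lower for 0 members, against 3.75%. The members and this comparison were chosen with earlier results of these arrays known, so the counts describe the genes and are not independent support.

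**Figure D1:**
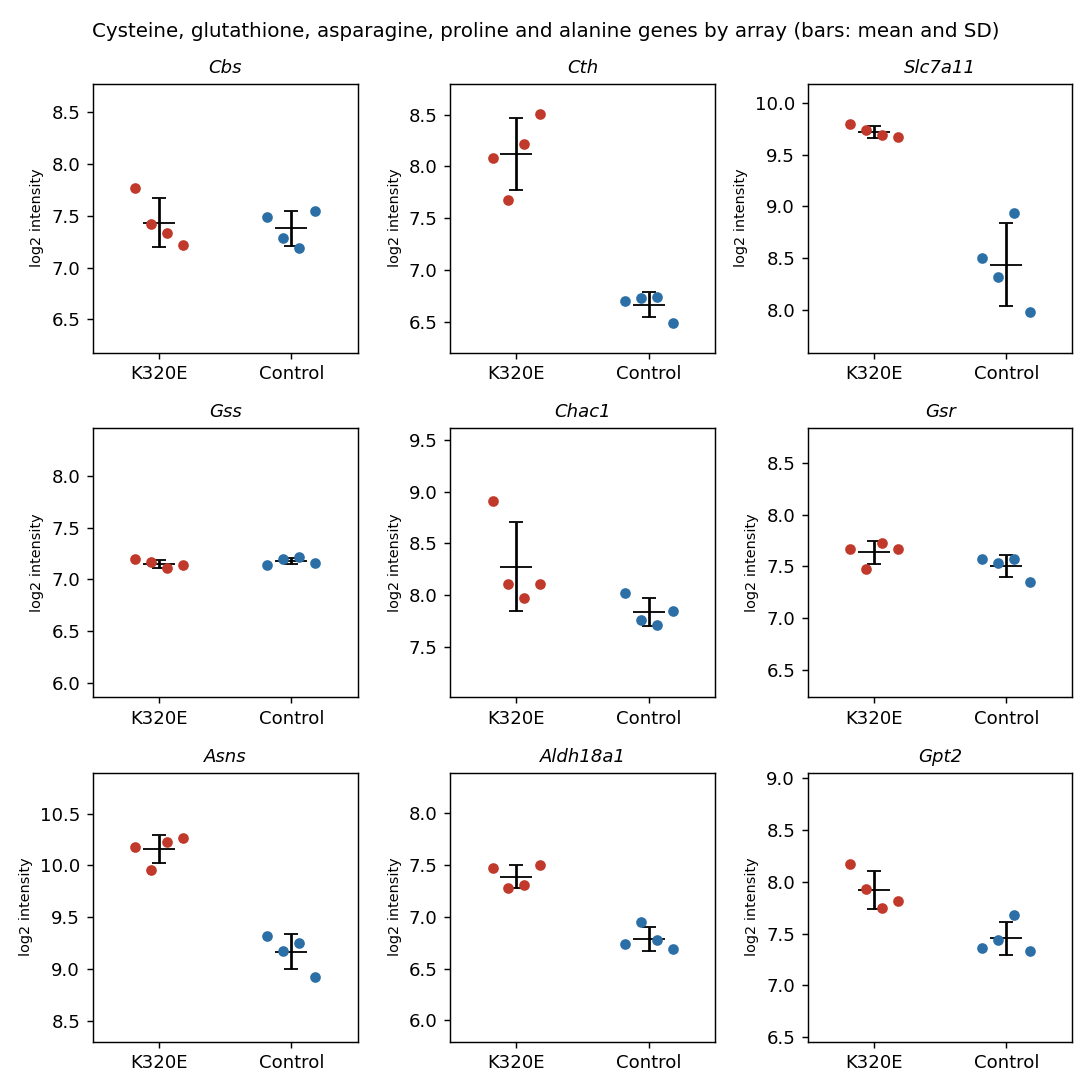
Log2 intensity of each measured gene on every array (points), with the mean and SD of 4 arrays per genotype (bars), on vertical axes of equal span. The K320E points of Cth, Slc7a11, Asns, Aldh18a1 and Gpt2 all lie above the Control points, and those of Cbs, Gss, Chac1 and Gsr overlap them.

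The arrays were checked against their labels. Twnk, which encodes Twinkle, was at 8.91 to 9.28 in K320E and 6.55 to 6.95 in Control, a difference of 2.31. Of 9 keratinocyte markers 0 were called, and their mean per array lay at 11.72 to 11.78 in K320E and 11.57 to 11.72 in Control. Control replicate 2 had an Xist level of 9.27 beside a mean of 9.05 over Y-linked genes, and Control replicate 3 had 6.17 and 4.75, which match neither sex clearly, so results are also given without both. K320E replicate 3 had an Xist level of 6.84 and a Y-linked mean of 8.64, while the other 5 arrays had Xist at 12.07 to 12.27 and Y-linked means of 4.75 to 4.82. With the Y-linked mean as a covariate the same 4 members and 133 genes in all were called. Markers of other cells moved with genotype. All 9 inner root sheath markers had negative differences (0 called; mean per array 7.57 to 8.15 in K320E and 8.16 to 9.81 in Control), as had 10 of 11 hair matrix and shaft markers (0 called; 6.52 to 6.74 in K320E and 6.73 to 7.70 in Control). Of 6 Langerhans and dendritic cell markers 2 fell (6.51 to 6.62 in K320E and 6.90 to 7.03 in Control). These were H2-Aa (-1.05) and H2-Ab1 (-0.98), while the rest had differences of -0.19 to -0.03, with Cd207 at -0.07. Of 8 sebocyte markers 1 fell (7.06 to 7.29 in K320E and 7.37 to 8.18 in Control). Of 4 T cell markers 1, Thy1, rose while the Cd3 genes had negative differences (6.29 to 6.87 in K320E and 6.74 to 7.13 in Control). The call of Thy1 (limma adjusted p = 0.0495) was kept in 1 of the 8 fits that leave out an array and under 5 of 10 other alternatives. All 9 skeletal muscle markers had positive differences (0 called; 6.90 to 8.19 in K320E and 6.40 to 7.31 in Control). Of 7 melanocyte markers 6 had negative differences (0 called; 7.94 to 8.31 in K320E and 8.19 to 8.64 in Control). K320E replicate 3 stood apart in 5 adipocyte markers, with a mean of 8.40 where the other K320E arrays lay at 6.85 to 7.12 and the Control arrays at 6.73 to 6.97, and it was also the highest array for mast cell (6.60), fibroblast (8.48) and endothelial (6.06) markers. None of these 4 lists, nor the neutrophil and macrophage or the erythroid list, had a called marker. In bulk epidermis fewer cells of a type and less RNA per cell cannot be told apart. Apart from the hair matrix and shaft level, which was used as a covariate, the part of these cells in the results was not tested.

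Both routes of cysteine supply had a gene that rose. Cth, the enzyme that releases cysteine from cystathionine, was at 8.08, 7.68, 8.22 and 8.51 in the K320E arrays, against 6.70, 6.72, 6.74 and 6.49 in the Control arrays. The groups did not overlap, and the K320E arrays were more spread (SD 0.35) than the Control arrays (SD 0.12). The difference was 1.46 (SE 0.15, limma adjusted p = 0.0057), or 2.74-fold, the 24th highest of all genes. Slc7a11, the cystine-importing subunit, was at 9.79, 9.74, 9.69 and 9.67 in K320E and at 8.51, 8.32, 8.94 and 7.98 in Control. Here the K320E arrays lay close together (SD 0.06) and the Control arrays were spread (SD 0.40), with replicate 3 the highest and replicate 4 the lowest. The difference was 1.29 (SE 0.17, limma adjusted p = 0.013), or 2.44-fold. Without Control replicate 4 it was 1.13, and without K320E replicate 3 it was 1.30 with a limma adjusted p of 0.051, which ends the call. A further probe set of Slc7a11 measured 9.57, 9.26, 9.60 and 9.28 in K320E and 7.74, 8.09, 8.78 and 7.74 in Control, a difference of 1.34, with the same Control array highest.

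Cbs, which makes the cystathionine that CTH splits, was not called. It was at 7.77, 7.42, 7.33 and 7.22 in K320E and 7.49, 7.29, 7.19 and 7.54 in Control. These ranges overlap almost wholly, and the difference was 0.06 (95% interval -0.23 to 0.34; limma adjusted p = 0.89). Whether the steps of transsulfuration changed unequally was tested on the within-array value of Cth minus Cbs. It averaged 0.69 ± 0.49 in K320E and -0.71 ± 0.27 in Control (SD, n = 4 each), a difference of 1.40 (SE 0.28). The exact two-sided permutation test gave p = 0.0286, the smallest that 4 against 4 arrays allow, and 0.0429 after Benjamini-Hochberg adjustment over 3 such pairs. Every K320E array lay above every Control array. Of the 5 pairs planned, those with Pycr1 were not run, so the adjustment covered 3 tests and not 5. The adjusted value of 0.0429, for this pair and for Gpt2 minus Gpt below, depends on that smaller number. Whether it would stay under 0.05 over 5 pairs is not known.

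**Figure D2:**
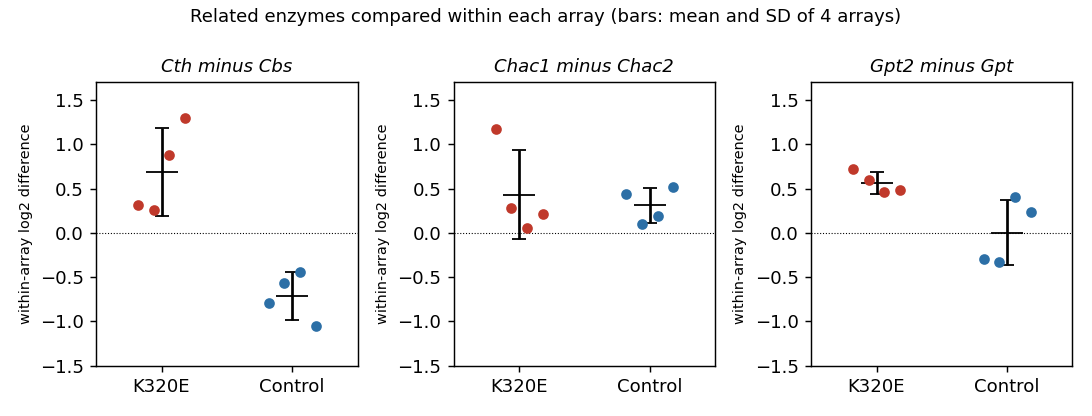
Within-array log2 difference between related enzymes (points, 1 per array; bars, mean and SD of 4 arrays). Cth minus Cbs and Gpt2 minus Gpt are higher on every K320E array than on every Control array, and Chac1 minus Chac2 overlaps between the genotypes.

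Around cysteine, the gene of the exchanger's partner subunit also rose. Slc3a2, which also pairs with other amino acid carriers, was at 9.60, 9.17, 9.14 and 9.30 in K320E and 8.74, 8.36, 8.70 and 8.55 in Control, a difference of 0.71 (SE 0.12, limma adjusted p = 0.033). The groups did not overlap, its call was kept in 2 of the 8 fits that leave out an array, and without Control replicates 2 and 3 the limma adjusted p was 0.0998. Ethe1, the mitochondrial enzyme that oxidises persulfide in sulfide disposal, rose by 0.52 (SE 0.09, limma adjusted p = 0.042), and its call was lost whichever array was left out and with the Y-linked covariate (limma adjusted p = 0.0688). These were the 2 called genes of 12 on cysteine use, sulfide and cystine carriers, none of which fell, and the list median was 0.03. Cdo1, the dioxygenase that starts cysteine breakdown, had a difference of 0.43 (SE 0.38) that was -0.02 without K320E replicate 3, the array at 8.22 where the other K320E arrays lay at 6.39 to 6.48 and the Control arrays at 6.18 to 6.85. In the methionine cycle upstream 0 of 10 genes were called (median 0.01). The largest difference there was 0.42, for Mtrr, which keeps methionine synthase active (limma adjusted p = 0.100).

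Glutathione synthesis and reduction showed no called change among the members. Gss, which adds glycine in the last step of synthesis, was at 7.20, 7.17, 7.11 and 7.14 in K320E and 7.14, 7.19, 7.22 and 7.16 in Control. All 8 values lie within a narrow band, and the difference was -0.03 (95% interval -0.14 to 0.09; limma adjusted p = 0.87). Gsr, the reductase that restores glutathione, was at 7.67, 7.47, 7.73 and 7.67 in K320E and 7.58, 7.53, 7.57 and 7.34 in Control, a difference of 0.13 (95% interval -0.05 to 0.30; limma adjusted p = 0.50) that was 0.0757 without Control replicate 4. K320E replicate 2 lay below 3 of the Control arrays.

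Chac1, which cleaves glutathione, was high on 1 K320E array. It was at 8.91, 8.11, 7.97 and 8.10 in K320E and 8.02, 7.75, 7.71 and 7.85 in Control. K320E replicate 1 stood far above the rest, and K320E replicate 3 lay below Control replicate 1. The difference was 0.44 (SE 0.19, limma adjusted p = 0.32), and 0.23 without that array. Chac2, a related enzyme of lower activity, was at 7.74 to 7.91 in K320E and 7.33 to 7.66 in Control, a difference of 0.32 (SE 0.08, limma adjusted p = 0.12). Chac1 minus Chac2 averaged 0.43 ± 0.50 in K320E and 0.31 ± 0.20 in Control (SD, n = 4 each), a difference of 0.12 (SE 0.27; exact permutation p = 0.83, also after adjustment over the 3 pairs). Without K320E replicate 1 that difference was -0.13.

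Other genes of glutathione making and breaking numbered 14, and 0 of them were called (median 0.0046). The catalytic and modifier subunits of glutamate-cysteine ligase, Gclc and Gclm, had differences of -0.25 and -0.10, which ran from -0.377 to -0.108 and from -0.146 to -0.021 as each array was left out. Without Control replicates 2 and 3 together they were -0.598 (limma adjusted p = 0.0838) and -0.202 (0.489). That of Gclc was 0.102 with the hair matrix and shaft level as a covariate. The largest difference of the list over all 8 arrays was 0.34 for Cndp2, a dipeptidase that splits cysteinylglycine (limma adjusted p = 0.16). Of 34 genes that use or reduce glutathione and thioredoxin, 1 rose and 0 fell (median 0.08). This was Gsta4, a glutathione transferase that acts on aldehydes of lipid peroxidation, at 9.69, 9.10, 9.77 and 9.68 in K320E and 8.19, 7.78, 7.69 and 7.53 in Control. Its groups lay well apart, with a difference of 1.77 (SE 0.18, limma adjusted p = 0.0043) or 3.40-fold. It was called whichever array was left out, but not with the hair covariate (limma adjusted p = 0.0594), and transferases of this family share sequence. The transferase Mgst2 had a difference of -0.41 (SE 0.14) and Gstp1 one of 0.51 (SE 0.28), neither called, and that of Gstp1 was 0.20 without K320E replicate 1.

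Among the enzymes that make other amino acids, Asns and Aldh18a1 rose and Gpt2 was not called. Asns, which amidates aspartate, was at 10.18, 9.96, 10.23 and 10.27 in K320E and 9.32, 9.18, 9.25 and 8.93 in Control. The groups were well separated and similarly spread, and the difference was 0.99 (SE 0.10, limma adjusted p = 0.0044), or 1.99-fold. Aldh18a1, which starts proline synthesis from glutamate in the mitochondrion, was at 7.47, 7.28, 7.31 and 7.50 in K320E and 6.74, 6.95, 6.78 and 6.69 in Control. Its difference of 0.60 (SE 0.08, limma adjusted p = 0.013), or 1.52-fold, held its call whichever array was left out. The call was lost with the hair matrix and shaft level as a covariate (limma adjusted p = 0.134) and with replicate number as a block (limma adjusted p = 0.0686).

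Gpt2, the mitochondrial alanine aminotransferase, was higher on every K320E array but not called. It was at 8.17, 7.93, 7.75 and 7.82 in K320E and 7.36, 7.43, 7.68 and 7.34 in Control, with Control replicate 3 just under the lowest K320E array. The difference was 0.47 (SE 0.11, limma adjusted p = 0.096), and the adjusted p was 0.0632 to 0.196 as each array was left out. Gpt, the cytosolic form, was at 7.36 ± 0.07 in K320E and 7.45 ± 0.31 in Control (SD, n = 4 each; limma adjusted p = 0.82). Gpt2 minus Gpt averaged 0.56 ± 0.12 in K320E and 0.0024 ± 0.37 in Control (SD, n = 4 each). The groups did not overlap, and the difference of 0.56 (SE 0.19) had an exact permutation p of 0.0286, or 0.0429 over the 3 pairs. The Control arrays fell on both sides of 0.

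**Figure D3:**
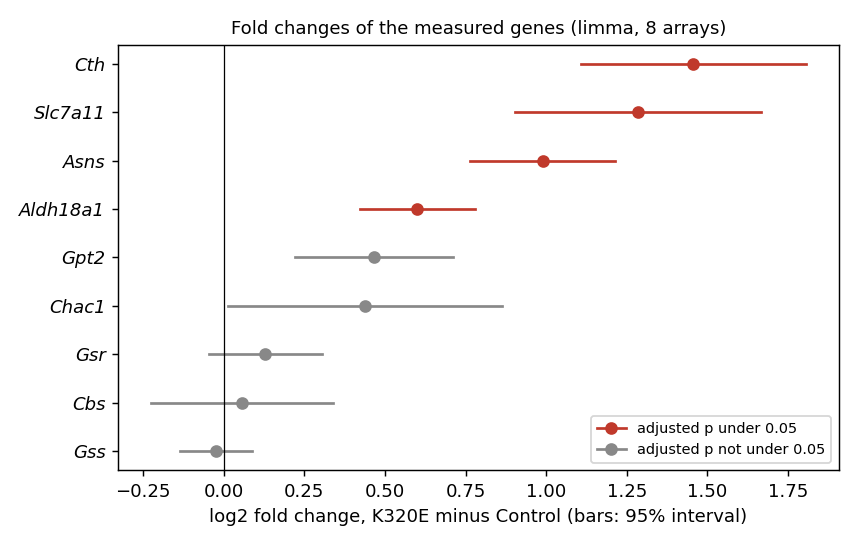
Log2 fold change of the measured genes, K320E minus Control, with 95% intervals from limma's fit over all genes. Cth, Slc7a11, Asns and Aldh18a1 are called (red); the intervals of Cbs, Gss and Gsr include 0, and those of Gpt2 and Chac1 do not but their adjusted p misses 0.05.

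Of 9 other proline and ornithine genes, 0 rose and 1 fell (median 0.10). This was Arg2, the mitochondrial arginase that yields ornithine, at 8.84, 8.85, 8.73 and 8.91 in K320E and 9.49, 9.25, 9.21 and 9.33 in Control. Its groups did not overlap, and it fell by 0.49 (SE 0.07, limma adjusted p = 0.021), with its call kept in 3 of the 8 fits that leave out an array. Pycrl, a reductase that makes proline, was at 6.51 to 6.81 in K320E and 6.47 to 6.80 in Control, a difference of 0.05 (limma adjusted p = 0.88). Prodh and Aldh4a1, which break proline down, had differences of 0.10 and 0.28, neither called. Of 9 other genes of asparagine, aspartate, alanine and glutamate 0 were called (median 0.13), and the largest difference was 0.38 for Got2, the mitochondrial aspartate aminotransferase (limma adjusted p = 0.26), which was 0.23 without K320E replicate 1.

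**Figure D4:**
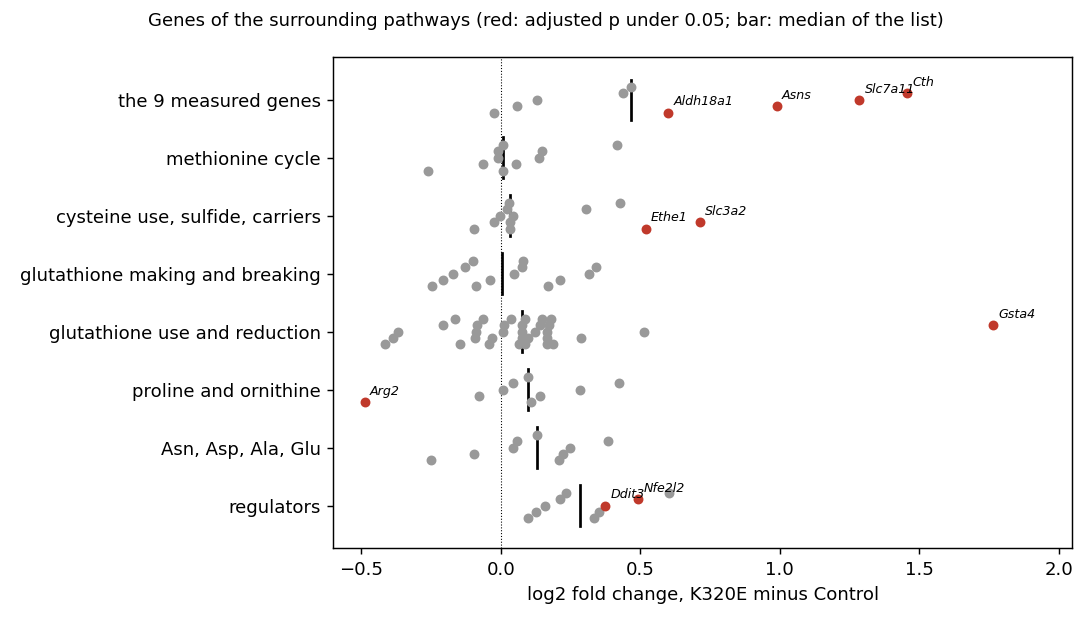
Log2 fold change, K320E minus Control, of each gene in the surrounding pathway lists (points; red, adjusted p under 0.05; vertical bar, median of the list). The red points are 4 of the 9 measured genes and 6 of 98 other genes.

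Over the 7 pathway lists 98 of 108 genes were measured, of which 5 rose and 1 fell. All 10 regulators fixed for these genes had positive differences (median 0.28, against -0.00052 over all genes). Of these 2 were called, where 0.685% of all genes rose. The list also holds Keap1, a repressor of NRF2, at 0.16, so the shared sign is not 1 direction of regulation. Nfe2l2, which encodes NRF2, was at 9.79 to 10.18 in K320E and 9.48 to 9.55 in Control, a difference of 0.49 (limma adjusted p = 0.031). Ddit3, which encodes CHOP, rose by 0.38 with an adjusted p of 0.0497. Both calls were lost in 7 of the 8 fits that leave out an array, and without Control replicates 2 and 3 together (limma adjusted p of 0.114 for Nfe2l2 and 0.156 for Ddit3). With the Y-linked covariate the call of Ddit3 was lost too (limma adjusted p = 0.0668). Atf4 had a difference of 0.33 (SE 0.09, limma adjusted p = 0.14), with K320E arrays at 10.62 to 10.81 just above Control arrays at 10.15 to 10.59.

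The 9 members did not all order the arrays in 1 way within a genotype, but the 4 called members shared part of an order. Control replicate 4 was the lowest Control array for 6 of the 9 members, among them Cth, Slc7a11, Asns and Aldh18a1, the 4 called. The same array had the highest hair matrix and shaft level (7.70). K320E replicate 1 was the highest K320E array for 5 members, among them Slc7a11. Cth, Asns and Aldh18a1 were highest on K320E replicate 4 and lowest on K320E replicate 2. With the hair matrix and shaft level as a covariate, the differences were 1.38 for Cth (limma adjusted p = 0.0698), 1.01 for Slc7a11 (0.105), 0.88 for Asns (0.0594) and 0.54 for Aldh18a1 (0.134), so that 0 of the 9 members, 0 of the 98 pathway genes and 21 of all genes were called. That level was itself lower on average in K320E, so the covariate and the genotype cannot be fully told apart. Without Control replicates 2 and 3 together, the same 4 members were called, with differences of 1.53 for Cth, 1.48 for Slc7a11, 1.03 for Asns and 0.68 for Aldh18a1 (limma adjusted p of 0.015 to 0.033).

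**Figure D5:**
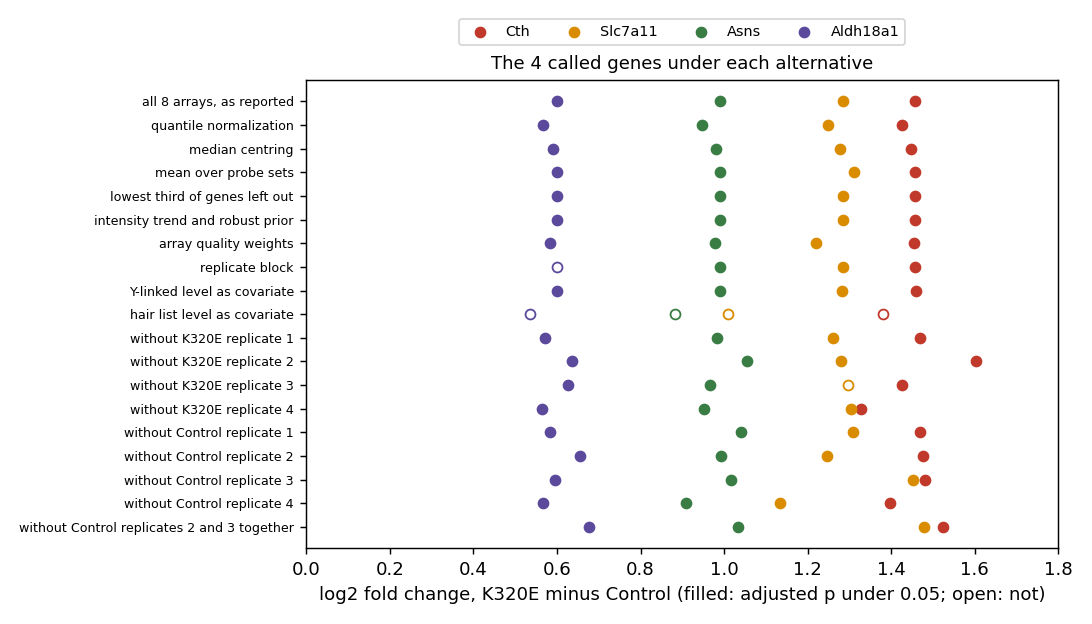
Log2 fold change of Cth, Slc7a11, Asns and Aldh18a1 as reported and under each alternative (filled, adjusted p under 0.05; open, not). All values stay above 0.5; all 4 are open with the hair covariate, Aldh18a1 with the replicate block and Slc7a11 without K320E replicate 3.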

How the data were processed

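Log2 intensities of 33793 probe sets were deposited by the authors for 8 arrays, ranging from 4.31 to 13.1, with array medians of 6.06 to 6.11. Per the labels, the RNA was biotin-labelled with a NuGEN Applause kit. How background was corrected and arrays were normalised is not given in the sources used here. The values were used as deposited, and the number of arrays limits the precision. Correlations between arrays ran from 0.987 to 0.994 within groups and from 0.976 to 0.992 between them, and 0 pairs were identical.

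A single gene was named for 23521 probe sets, several for 1814 and none for 8458. Genotypes, taken from the titles, were compared over all 8 arrays by lmFit and eBayes of limma (version 3.58.1, R version 4.3.3), with no term but genotype, with Benjamini-Hochberg adjustment over all genes at 0.05. The fit was tested on simulated data. Within-array differences used exact two-sided permutation tests. The members and lists were chosen with earlier results of these data known. The text names all members, called genes of each pathway list, the largest difference in a list with none, Twnk, Atf4, Ddit3, Nfe2l2 and the paired enzymes; Cdo1, Gclc, Gclm, Gstp1, Mgst2, Pycrl, Prodh, Aldh4a1 and Thy1 were added after their values were seen. Whether the same replicate numbers pair the arrays is not known.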

Additional observations from a re-analysis of the deposited data

Results flagged for a closer look

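Among 62 groups of 4 arrays (31 named genes in each genotype), 7 held an array far from the other 3 by Dixon's criterion, which chance meets in about 5% of groups. Of the genes flagged, Cdo1, Gstp1, Gclm and Prodh were named only after their values were seen. The count of 7 can therefore not be read against that 5%. Chac1 was at 8.91 in K320E replicate 1, with the next array at 8.11. Cth was at 6.49 in Control replicate 4, with the next at 6.70. Gsta4 was at 9.10 in K320E replicate 2, with the next at 9.68. Cdo1 was at 8.22 in K320E replicate 3, with the next at 6.48. Gstp1 was at 10.9 in K320E replicate 1, with the next at 9.77. Gclm was at 7.69 in K320E replicate 2, with the next at 7.98, and Prodh at 6.49 in K320E replicate 4, with the next at 6.68. The difference of Chac1 was 0.23 without that array, while Cth and Gsta4 were called whichever array was left out.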

How the results depend on the processing

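Cth and Asns were called under 9 of 10 alternatives other than leaving out 1 array, Slc7a11 under 9 and Aldh18a1 under 8. The count of called members was 4 except with the replicate block (3), without K320E replicate 3 (3) and with the hair covariate (0), and over the arrays left out in turn it ran from 3 to 4. With 195 genes called in all, the count was 114 with the replicate block and 21 with the hair covariate, and 53 to 173 with each array left out, fewest without K320E replicate 3 (53) and K320E replicate 4 (77). The count of 6 over the pathway lists, whose alternatives were added after seeing the data, was 2 with the replicate block, 0 with the hair covariate, 3 without Control replicates 2 and 3, and 1 to 7 with each array left out. The causes were not tested. Whether the replicate numbers pair the arrays is not known. Same-numbered deviations correlated at -0.065 to 0.14, and the highest correlation with another number was 0.0395 to 0.134. The same-numbered value was the higher for replicates 1 and 4 and the lower for replicates 2 and 3. Such weak correlations cannot decide it, so the block result (Aldh18a1 limma adjusted p = 0.069) stands beside the main fit. Uncalled values changed sign in a few settings. With each array left out Cbs ran from -0.0536 to 0.129 (below 0 without K320E replicate 1 and without Control replicate 3), and it was at -0.0825 without Control replicates 2 and 3, and Gss was at 0.00022 in the last of these. Gclc was at 0.102 and Pycrl at -0.029 with the hair covariate. With each array left out Cdo1 ran from -0.018 to 0.591, Pycrl from -0.0204 (without Control replicate 4) to 0.11, and Gpt from -0.211 to 0.00957, the highest without Control replicate 2. Chac1 minus Chac2 ran from -0.126, without K320E replicate 1, to 0.246, and was at -0.0475 without Control replicates 2 and 3. Pairs were not tested with arrays left out, since the exact permutation test of 3 against 4 arrays cannot go below p = 0.0571. Ddit3 was called under 3 of the 10 alternatives.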
